A study of Mus musculus with 21 samples.

Results

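The genes described here encode 33 proteins that hepatocytes secrete into blood plasma, taken as a fixed list and measured in subcutaneous Hepa1-6 tumours. That list was chosen with earlier results of these data known. A gene was found by its symbol in the array platform's annotation, and the brightest probe set was to stand for it. Each of the 32 genes found had 1 probe set, out of 22206 probe sets tested, and C3, the central complement component, is unnamed here. The questions were which of these liver products tumours of a hepatoma line still expressed, and how their levels differed over 4 treatment arms. Hepa1-6 is a mouse hepatoma line. It was injected subcutaneously into female C57BL/6J hosts aged 5 to 6 weeks, which keep their own immune system and liver, so every arm shared the line, the injection site and the strain. At a tumour volume of 200 mm3 mice were randomised to placebo (vehicle with polyclonal IgG, n = 6), lenvatinib (n = 5), anti-PD1 (antibody clone J43, n = 5) or combination (lenvatinib with anti-PD1, n = 5). Lenvatinib, an inhibitor of the VEGF and FGF receptors and related kinases, was given daily by mouth at 10 mg/kg. Anti-PD1, which blocks an inhibitory receptor of T cells, was given into the peritoneum as 5 doses of 10 mg/kg, 3 days apart. Tissue was taken on day 13 and RNA from 30 mg of tissue was hybridised to Clariom S arrays, 1 per mouse. Normal liver was not analysed here.

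Plasma proteins are made mainly by hepatocytes, which secrete albumin and other carriers, apolipoproteins, most clotting factors and many protease inhibitors. Their genes are read under a small set of liver transcription factors, among them HNF1, HNF4, the FOXA proteins and C/EBP proteins, and a hepatoma keeps a varying part of that programme. Alpha-fetoprotein is the albumin relative of fetal liver that is silenced after birth and made again by many hepatomas. During inflammation cytokines shift liver output towards acute-phase proteins such as fibrinogen and haptoglobin, and away from albumin and transthyretin.

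The promoters of albumin, alpha-fetoprotein and the fibrinogen beta and alpha chains are shown because Afp and Fgb followed Alb across the tumours, while Fga did not pass that test. Each is the 200 bases before the gene's start in RefSeq's GRCm38.p6 table, 5′ to 3′ on the gene's strand. Capitals mark GTTAAT, the core of an HNF1 half-site, and TTNNGNAA, a loose C/EBP pattern, on either strand.
Alb, chr5:90460670-90460869, plus strand: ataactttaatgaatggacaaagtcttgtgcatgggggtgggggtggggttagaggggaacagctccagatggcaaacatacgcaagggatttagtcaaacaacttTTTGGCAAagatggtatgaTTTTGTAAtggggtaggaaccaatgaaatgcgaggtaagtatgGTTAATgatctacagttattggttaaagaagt
Afp, chr5:90490514-90490713, plus strand: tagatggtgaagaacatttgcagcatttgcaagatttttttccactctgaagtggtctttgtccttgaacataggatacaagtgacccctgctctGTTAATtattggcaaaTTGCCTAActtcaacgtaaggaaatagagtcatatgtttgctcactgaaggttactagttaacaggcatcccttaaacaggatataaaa
Fgb, chr3:83049864-83050063, minus strand: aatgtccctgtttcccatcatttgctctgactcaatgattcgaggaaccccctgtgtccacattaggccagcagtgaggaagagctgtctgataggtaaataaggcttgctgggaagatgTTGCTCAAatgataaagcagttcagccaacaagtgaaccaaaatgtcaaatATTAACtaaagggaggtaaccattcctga
Fga, chr3:83025953-83026152, plus strand: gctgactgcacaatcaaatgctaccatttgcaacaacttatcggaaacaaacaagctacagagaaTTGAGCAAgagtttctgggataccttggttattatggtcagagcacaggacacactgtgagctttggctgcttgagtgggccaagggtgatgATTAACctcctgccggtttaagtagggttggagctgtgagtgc
All 4 windows held both patterns. The same 200 bases before prothrombin (F2), which also followed Alb, held neither, and its full window held GTTAAT. In the full windows, 250 bases before to 50 after the start, GTTAAT was found in 9 of the 26 listed genes with an entry and in 8.24% of 27025 genes. TTNNGNAA was found in 17 of the 26 and in 44.1% of all genes, and TNTTTAC, a forkhead pattern, in 5 of the 26 and in 14.0%. CAAAGTCCA, an HNF4 pattern, was in 0 of the 26 and in 0.555% of all genes. CCAAT was in 10 of the 26 (41.1% of all genes) and TATAAA in 8 (15.7%). Both strands were searched, and matches of different patterns may overlap. A match is a run of letters, and binding was not measured.

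Albumin (Alb), retinol-binding protein 4 (Rbp4), transferrin (Trf) and ceruloplasmin (Cp) passed a background limit in every tumour. Expression was judged on each array against the 95th percentile of its 5222 negative-control rows, a limit that lay between 7.04 and 7.78 on the log2 scale of the deposited signals. These 4 of the 32 genes passed it on all 21 arrays, against 7.94% of all probe sets. Alb passed only narrowly in placebo mouse 1 (7.559 against a limit of 7.512) and placebo mouse 6 (7.648 against 7.646). At the 99th percentile of the controls Alb passed on 18 arrays and Cp on 11. A further 7 passed on 7 to 18 arrays: alpha-fetoprotein (Afp, 18), haptoglobin (Hp, 16), fibrinogen beta chain (Fgb, 13), prothrombin (F2, 13), hemopexin (Hpx, 12), transthyretin (Ttr, 9) and Ambp (7), which encodes the alpha-1-microglobulin and bikunin precursor. Another 7, Apoa2, Apob, Apoc3, Apoh, Fgg, F7 and Vtn, passed on 1 to 3 arrays. The remaining 14 passed on none, where 66.3% of all probe sets lay: Ahsg, Apoa1, Fga, F5, F9, F10, Kng1, Serpinc1, Plg, Pzp and Itih1 to Itih4. Of these, F9, Kng1 and Serpinc1 never exceeded even the median of the negative controls, while 20 of the 32 genes did so on all arrays (57.9% of all probe sets). Between 5 and 14 of the 32 genes passed the limit in a single tumour, with 14 in lenvatinib mouse 2 and 5 in placebo mouse 1 and anti-PD1 mouse 2.

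Other liver genes were taken from lists drawn up for the comparison. Of 50 further plasma protein genes measured (58 listed), Apoe and C4b passed the limit on every array, 17 on some and 31 on none, where 7.94% of all probe sets passed on every array and 66.3% on none. Insulin-like growth factor binding protein 1 (Igfbp1), a liver product, ranged from 4.47 to 11.70 and passed on 18 arrays. Of 21 mature hepatocyte enzyme genes measured (26 listed), 0 passed on all arrays and 15 on none (66.3% of all probe sets). Cps1, the first enzyme of the urea cycle, ranged from 3.08 to 3.90, and Otc, the next, from 2.46 to 3.94. Arg1, the last enzyme of that cycle and also a macrophage gene, ranged from 4.18 to 11.26 and passed on 18 arrays, and Cyp2e1, a cytochrome P450, reached 10.29 and passed on 6. Of 21 liver transcription factors measured (24 listed), 0 passed on all arrays, 9 on some and 12 on none. Stat3 passed on 20 arrays, Zhx2 on 17, Foxa2 on 9 and Foxa3 on 8. Hnf4a ranged from 3.45 to 8.35 and passed on 2 arrays, and Cebpa passed on 0. The simple-epithelial keratins Krt8 and Krt18 passed on all 21 arrays. Glypican 3 (Gpc3), a fetal liver and hepatoma marker like Afp, passed on 3 arrays, and fetal Dlk1 on none. Of the 13 measured genes of that fetal liver and hepatoma list, 2 passed on all arrays, 5 on some and 6 on none, and Afp itself was below the limit in placebo mice 1 and 6 and anti-PD1 mouse 2.

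**Figure D1:**
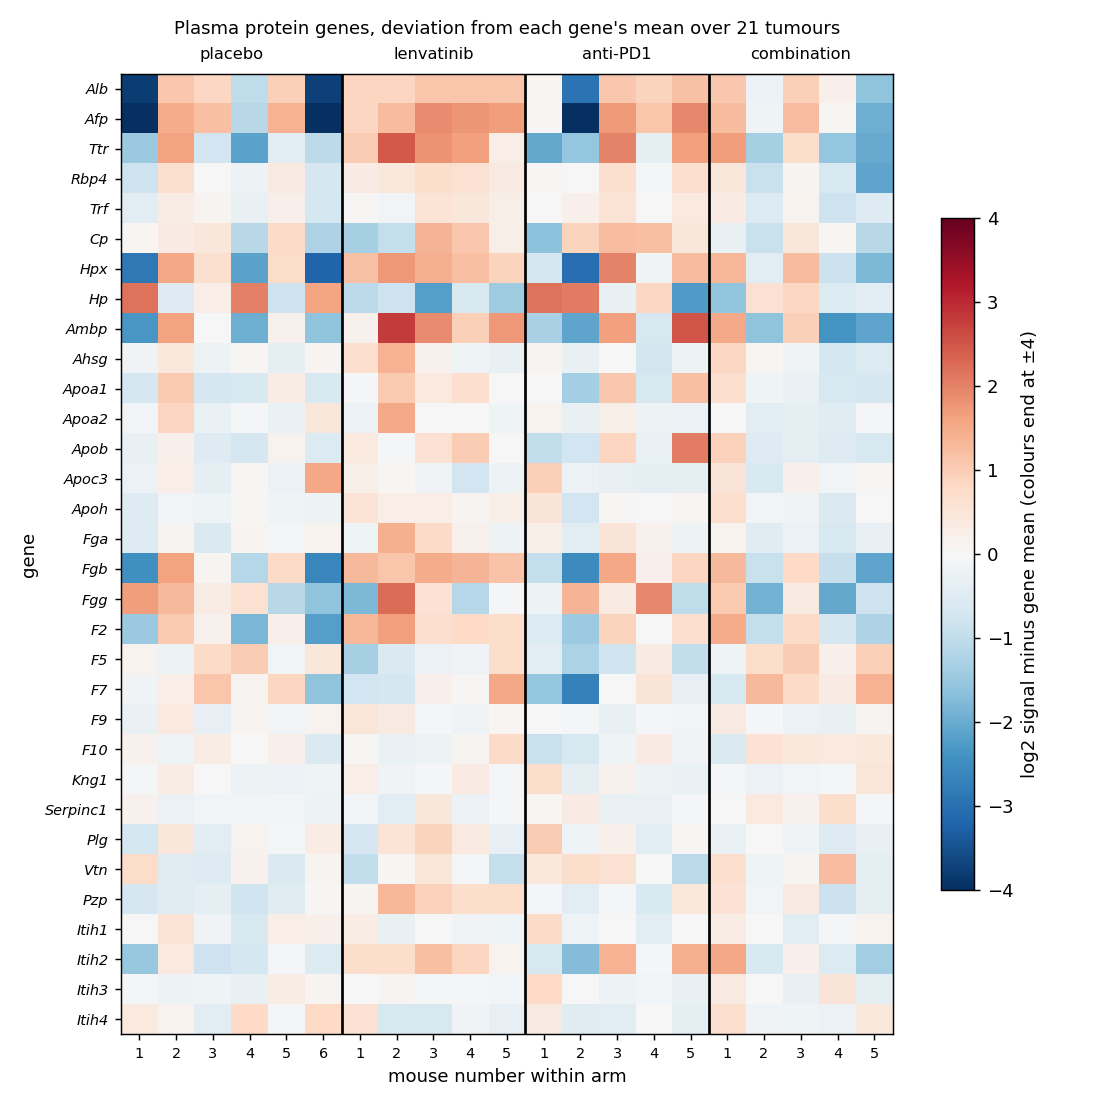
Colours give each gene's log2 signal minus its own mean over the 21 tumours, with genes in rows and mice in columns by arm. Alb, Afp, Hpx and Fgb are low together in placebo mice 1 and 6 and anti-PD1 mouse 2, while Hp is high there.

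Array medians lay between 5.32 and 5.49. Pieces of other tissue differed between tumours and stand beside several results below. A score is the mean over a marker list after centring each gene on its mean over the 21 mice. Adipocyte markers (10 of 11 listed were measured) scored highest in 6 tumours, placebo mice 1, 4 and 6 and anti-PD1 mice 1, 2 and 4, with scores from 1.75 to 2.87 against at most 0.90 in the other 15. These 6 are called adipocyte-rich below, a set chosen after the data were seen. No tumour of the lenvatinib or combination arm was among them. Skeletal muscle markers stood out in 5 tumours, placebo mice 1 and 5, lenvatinib mouse 4, anti-PD1 mouse 2 and combination mouse 2. Hybridization controls, added to the sample before hybridization, were brighter on 6 arrays, those of mice 4 and 6 under placebo, 1 and 2 under lenvatinib, 1 under anti-PD1 and 1 under the combination.

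Albumin, the main carrier and osmotic protein of plasma, was near 12 in most tumours and lower by several log2 units in a few. In the placebo arm the log2 signals of mice 1 to 6 were 7.56, 12.46, 12.19, 10.35, 12.33 and 7.65, and in the lenvatinib arm those of mice 1 to 5 were 12.22, 12.24, 12.46, 12.47 and 12.47. Under anti-PD1 they were 11.45, 8.41, 12.45, 12.25 and 12.55, and under the combination 12.44, 11.12, 12.33, 11.58 and 9.76. The lenvatinib tumours lay at the top of the placebo range, with mice 1 and 2 inside it and the other 3 just above its highest value, so the arms overlapped. The low values came from mice 1, 4 and 6 of the placebo arm, mouse 2 under anti-PD1 and mouse 5 under the combination. Arm means were 10.42 ± 2.32 (SD, n = 6) for placebo, 12.37 ± 0.13 (n = 5) for lenvatinib, 11.42 ± 1.74 (n = 5) for anti-PD1 and 11.45 ± 1.09 (n = 5) for the combination. In such bulk tissue, fewer tumour cells and less albumin RNA per tumour cell cannot be told apart.

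Alpha-fetoprotein had the widest range of the listed genes, 8.19 log2 units. Placebo signals were 5.60, 11.49, 11.19, 8.90, 11.39 and 5.05, and lenvatinib signals were 10.86, 11.26, 11.91, 11.76 and 11.68. Anti-PD1 signals were 10.04, 3.75, 11.69, 11.11 and 11.94, and combination signals were 11.26, 9.82, 11.24, 10.06 and 8.06. The low tumours were those low in albumin, and the arms overlapped. Rbp4, Trf and Cp were 11.03, 10.58 and 9.50 in placebo mouse 1, and 11.16, 10.33 and 8.19 in placebo mouse 6. In anti-PD1 mouse 2 they were 11.86, 11.24 and 10.31. Which cells made this RNA was not tested. Ranges above 4 log2 units were seen in 9 of the 32 genes (Alb, Afp, Ttr, Hpx, Hp, Ambp, Fgb, Fgg and F7), against 3.46% of all probe sets, and ranges above 2 in 21 against 30.9%.

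Most of the variable carriers followed albumin from tumour to tumour. Each of the other 31 genes was correlated with Alb over the 21 tumours, with permutation p-values from 100000 resamples adjusted over the 31. Both Pearson's r and Spearman's rho passed an adjusted p under 0.05 for 13 genes, 12 with a positive sign and Hp with a negative one. The same 12 genes had r of at least 0.5, where 9.46% of all other probe sets lay, and Hp alone had r of -0.5 or lower, against 9.33%. Afp gave r = 0.97 and rho = 0.97, each with a permutation p of 1e-05, the smallest these resamples can give, and adjusted permutation p of 7.75e-05 and 6.2e-05. Without the 2 tumours farthest from the median of Alb, placebo mice 1 and 6, r was 0.97, on deviations from arm means it was 0.97, and it was 0.967 within the 15 arrays with dim hybridization controls and 0.997 within the 6 with bright ones. Hpx (r = 0.93, rho = 0.82), Fgb (r = 0.92, rho = 0.87) and F2 (r = 0.85, rho = 0.75) came next. For these 3 genes r without the 2 farthest tumours was 0.92, 0.91 and 0.83, within the 15 dim arrays it was 0.94, 0.92 and 0.89, and within the 6 bright ones 0.93, 0.92 and 0.88. The other positive genes were Itih2 (r = 0.74), Ambp (0.74), Apoa1 (0.65), Ttr (0.65), Rbp4 (0.65), Trf (0.62), Apoh (0.56) and Apob (0.52). Over these 8 genes r lay between 0.50 and 0.80 within the 15 dim arrays and between 0.54 and 0.98 within the 6 bright ones, and Trf gave r = 0.45 without the 2 farthest tumours. The tumours share 1 normalization.

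**Figure D2:**
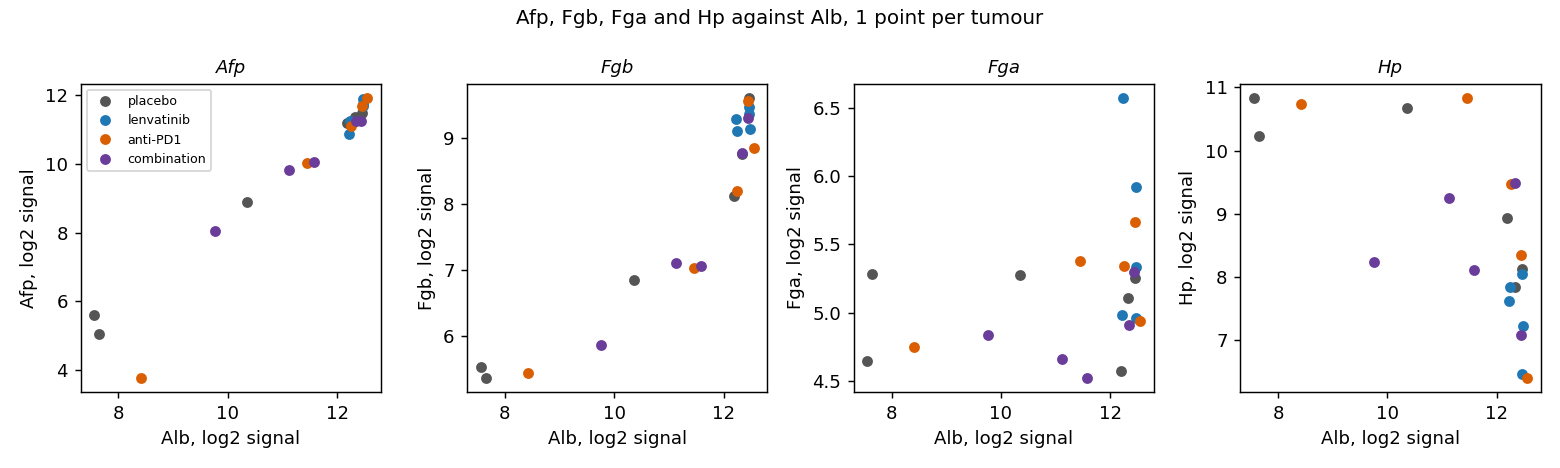
Each point is a tumour, coloured by arm, with the log2 signal of Alb across and of Afp, Fgb, Fga or Hp upward. Afp and Fgb climb with Alb (r = 0.97 and 0.92) and Hp slopes downward (r = -0.69). Fga shows a weak slope that did not pass the test (r = 0.31).

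The 3 fibrinogen chains, which assemble into 1 clotting protein and whose genes lie side by side on chromosome 3, differed in how they followed Alb, a contrast that was not itself tested. Fga gave r = 0.31 with Alb (adjusted permutation p = 0.259) and Fgg r = -0.02 (adjusted permutation p = 0.963), against r = 0.92 for Fgb. Within the 15 dim arrays Fga gave r = 0.49 and rho = 0.65, and within the 6 bright ones 0.24 and 0.37. For Fgg r was -0.27 and 0.48 in the same sets. Fgb passed the background limit on 13 arrays, Fgg on 1 and Fga on none, so the Fga values in particular were measured near background. Fgg still ranged over 4.29 log2 units, with placebo mouse 1 at 7.23 and lenvatinib mouse 2 at 7.79 against combination mouse 4 at 3.51. The Fga and Fgb promoter windows printed above both held the 2 marked patterns, GTTAAT and TTNNGNAA. TNTTTAC was found in the full window of Fgb and not in that of Fga.

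Haptoglobin, the acute-phase protein that binds free haemoglobin, went the other way. Its relation with Alb was r = -0.69 (adjusted permutation p = 0.00137) and rho = -0.75, with r = -0.61 without the 2 farthest tumours, -0.71 within the 15 dim arrays and -0.65 within the 6 bright ones. Haptoglobin is also made by adipose tissue. Hp lay between 9.47 and 10.84 in the 6 adipocyte-rich tumours and between 6.40 and 9.50 in the other 15, so the sets overlapped narrowly. Alb lay between 7.56 and 12.25 in the same 6 and between 9.76 and 12.55 in the other 15. The part of adipocyte RNA in the relation was not tested.

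**Figure D3:**
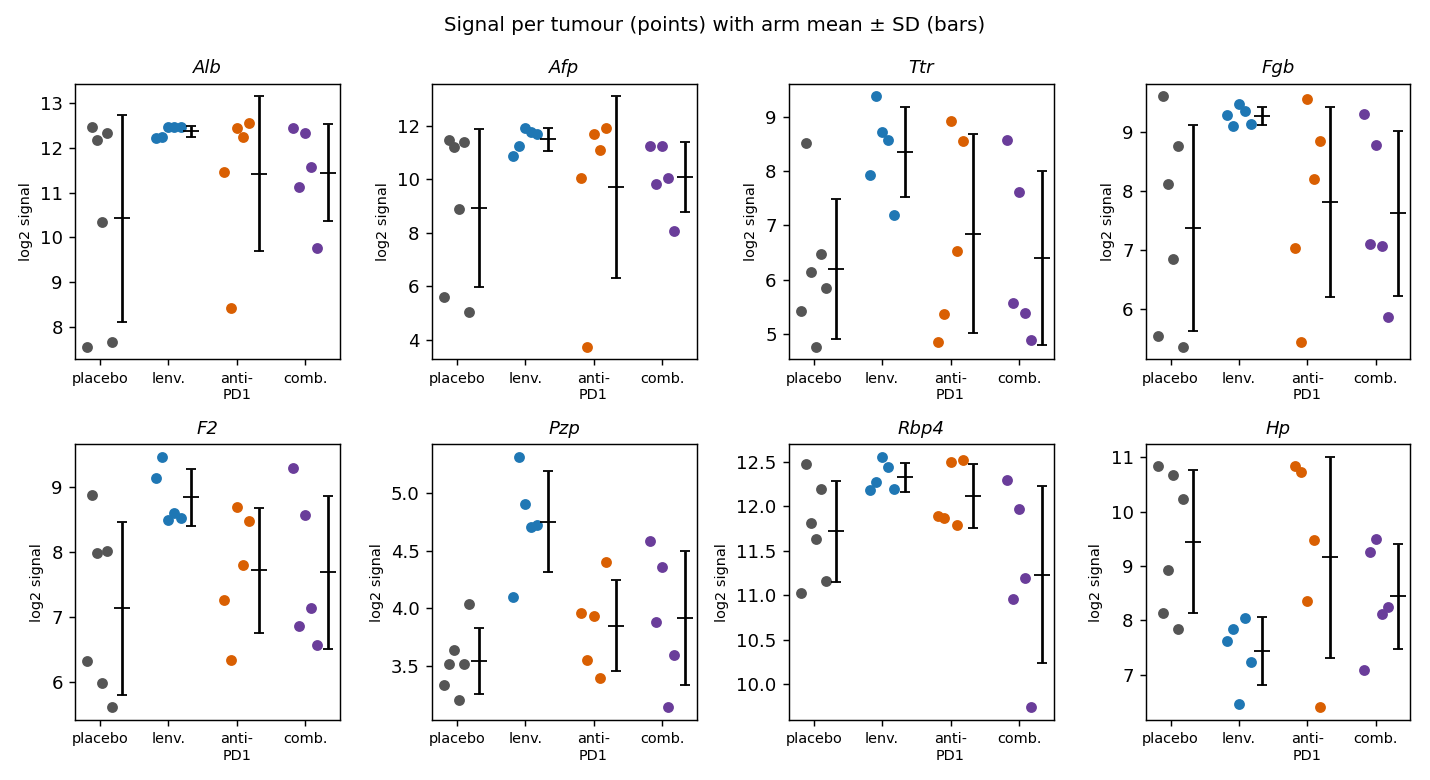
Points are log2 signals of single tumours by arm and bars are the arm mean ± SD (n = 6 for placebo and 5 for each other arm). Lenvatinib tumours cluster at the upper end for Alb, Afp, Fgb and F2 and at the lower end for Hp, and placebo tumours spread widely.

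Lenvatinib against placebo asked what the kinase inhibitor did alone, and no listed gene passed the test. With limma and Benjamini-Hochberg adjustment over all probe sets, 0 of 22206 probe sets (percent called 0) passed an adjusted p under 0.05, and the smallest adjusted p among the listed genes was 0.69. At an unadjusted p under 0.05 the listed genes gave 9 with a higher and 1 with a lower lenvatinib mean, where 2.92% and 4.05% of all probe sets lay. A difference above 0 was found for 24 of the 32 genes (49.1% of all probe sets), with a median of 0.29 against -0.01 over all probe sets. Transthyretin, carrier of thyroid hormone and partner of Rbp4, was 6.20 ± 1.28 (SD, n = 6) under placebo and 8.35 ± 0.83 (n = 5) under lenvatinib, a log2 difference of 2.15 ± 0.79 (SE). Placebo Ttr signals were 5.42, 8.52, 6.14, 4.77, 6.48 and 5.86, and lenvatinib signals were 7.93, 9.38, 8.71, 8.57 and 7.19, so 1 placebo tumour lay inside the lenvatinib range. The differences were 1.95 ± 0.88 for Alb, 2.18 ± 0.89 for the haem carrier Hpx and 2.20 ± 0.89 for Ambp. Afp differed by 2.56 ± 1.32, with an unadjusted p of 0.066.

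Coagulation and inhibitor genes lay in the same comparison. F2, the thrombin precursor, was 7.13 ± 1.32 (SD, n = 6) under placebo and 8.83 ± 0.43 (n = 5) under lenvatinib, a difference of 1.70 ± 0.58 (SE). Its placebo signals were 6.33, 8.87, 7.98, 5.99, 8.01 and 5.62, and its lenvatinib signals were 9.12, 9.45, 8.48, 8.59 and 8.52, which overlapped through placebo mouse 2. Fgb differed by 1.90 ± 0.77, Itih2, a hyaluronan-binding inhibitor heavy chain, by 1.27 ± 0.53 and Apoh, a phospholipid-binding plasma protein, by 0.47 ± 0.21. Itih2 did not pass the background limit on any array, and Apoh passed on 1 lenvatinib and 0 placebo arrays. Hp differed by -2.0 ± 0.70, with placebo signals of 10.84, 8.13, 8.93, 10.68, 7.84 and 10.23 and lenvatinib signals of 7.62, 7.84, 6.46, 8.05 and 7.24.

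Pzp, a broad protease trap of the alpha-2-macroglobulin family, had the smallest p among the listed genes, at low signal. Placebo signals were 3.33, 3.52, 3.64, 3.21, 3.52 and 4.04, and lenvatinib signals were 4.10, 5.31, 4.90, 4.71 and 4.73. All lenvatinib tumours lay above all placebo tumours, with a log2 difference of 1.21 ± 0.25 (SE) and a limma adjusted p of 0.69. Every one of these signals was below the background limit, so this is a difference between signals not measured above background. Apoh was the other gene whose groups did not overlap, making 2 of 32 with a higher lenvatinib arm against 0.288% of all probe sets.

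The size of most of these differences moved with the adipocyte-rich tumours, 3 of which were placebo tumours. The adipocyte score was 0.82 ± 1.65 (SD, n = 6) under placebo and -1.37 ± 1.14 (n = 5) under lenvatinib, and all 10 measured markers had a negative difference. Without the 6 adipocyte-rich tumours the lenvatinib against placebo difference was 0.05 for Alb, 0.14 for Afp, 0.32 for Hpx, 0.44 for Fgb, 0.55 for F2, 0.92 for Ambp and 1.30 for Ttr. Over the same tumours it was -0.86 for Hp, 0.43 for Apoh, 0.90 for Itih2 and 1.19 ± 0.31 for Pzp. In place of 9 higher and 1 lower at an unadjusted p under 0.05, the count was 1 and 0 without these tumours, 2 and 0 without the 6 arrays with bright controls, and 5 and 1 without the 5 muscle-rich tumours. Here and below, counts with tumours left out stand without the share of all probe sets. Fewer tumours also give less precision. Without the 6 arrays with bright controls the differences were 1.33 for Alb, 1.51 for Ttr, 1.17 for Hpx, 0.73 for F2, 1.32 for Fgb, -1.69 for Hp and 1.28 for Pzp. Mitosis markers also moved, with all 13 measured above 0, and their part was not tested.

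Anti-PD1 against placebo gave a smaller spread of differences. No probe set passed (percent called 0), 22 of the 32 genes had a difference above 0 (49.6% of all probe sets) and the median was 0.21. The single gene at an unadjusted p under 0.05 was clotting factor V, F5, the cofactor of factor Xa, at -0.99 ± 0.34 (SE; 0 higher and 1 lower, against 1.38% and 2.68% of all probe sets). Itih4 differed by -0.45 and Trf by 0.37. The combination against placebo had no probe set past the threshold (percent called 0) and 0 listed genes at an unadjusted p under 0.05, against 1.01% higher and 1.30% lower. The 3 smallest p-values belonged to Serpinc1, the antithrombin gene (0.33), Pzp (0.37) and Hp (-1.0). Of the 32 genes 17 lay above 0 (49.3% of all probe sets), with a median of 0.06. Without the adipocyte-rich tumours 11 lay above 0, with a median of -0.15, 0 higher and 2 lower at an unadjusted p under 0.05, and Hp at 0.14. Without the arrays with bright controls 10 lay above 0, with a median of -0.14 and 0 higher and 4 lower.

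Adding anti-PD1 to lenvatinib was accompanied by lower means of several carriers, none past the test (limma, percent called 0). Combination against lenvatinib gave 1 higher and 6 lower genes at an unadjusted p under 0.05, against 3.87% and 2.53% of all probe sets, and 10 of 32 differences lay above 0 (48.8% of all probe sets) and 22 below, with a median of -0.47 against -0.01 over all probe sets. Rbp4, the plasma carrier of vitamin A, had lenvatinib signals of 12.18, 12.27, 12.55, 12.44 and 12.19 and combination signals of 12.29, 10.96, 11.96, 11.19 and 9.74. Of the combination tumours 4 lay below all lenvatinib tumours and mouse 1 lay among them, for a difference of -1.10 ± 0.36 (SE). Without combination mouse 5 it was -0.72. The differences were -1.95 ± 0.82 for Ttr, -2.24 ± 0.93 for Ambp, -0.52 ± 0.23 for the iron carrier Trf, -0.71 ± 0.27 for Fga and -0.84 ± 0.27 for Pzp. The higher gene was F5, at 5.42 ± 0.74 (SD, n = 5) under lenvatinib and 6.29 ± 0.52 (n = 5) under the combination. F5, Fga and Pzp lay below the background limit on every array, and Fga was -0.46 without lenvatinib mouse 2. With array weights, which give noisier arrays less say, Pzp, Rbp4 and Trf passed at limma adjusted p of 0.028, 0.033 and 0.037. They were among 707 probe sets called by that setting. In these arms the arrays with bright controls had the lowest weights. Combination mouse 1, whose Rbp4 lay among the lenvatinib values, had 0.37. Lenvatinib mice 1 and 2 had 0.27 and 0.36, against 3.63 for lenvatinib mouse 4. Neither arm held an adipocyte-rich tumour, and with those of the other arms left out of the shared spread the count was 1 higher and 11 lower at unchanged differences. Macrophage markers (13 of 14 listed were measured) all had a positive difference, and their score was -0.34 ± 0.62 (SD, n = 5) under lenvatinib and 0.56 ± 0.74 (n = 5) under the combination. T cell markers (10 of 10 measured above 0, median 1.16) and B cell markers (8 of 8, median 1.22) lay the same way, and 12 of 13 mitosis markers lay below 0. The B cell scores of combination mice 1 to 5 were -0.35, -0.11, 1.55, 3.64 and -0.04, against -0.76 to 0.60 under lenvatinib. Each B cell marker passed the background limit on at most 1 array. The part of macrophages, T and B cells and of mitosis in the values was not tested. The keratins Krt8 and Krt18 differed by -0.92 and -1.09 in the same direction.

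**Figure D4:**
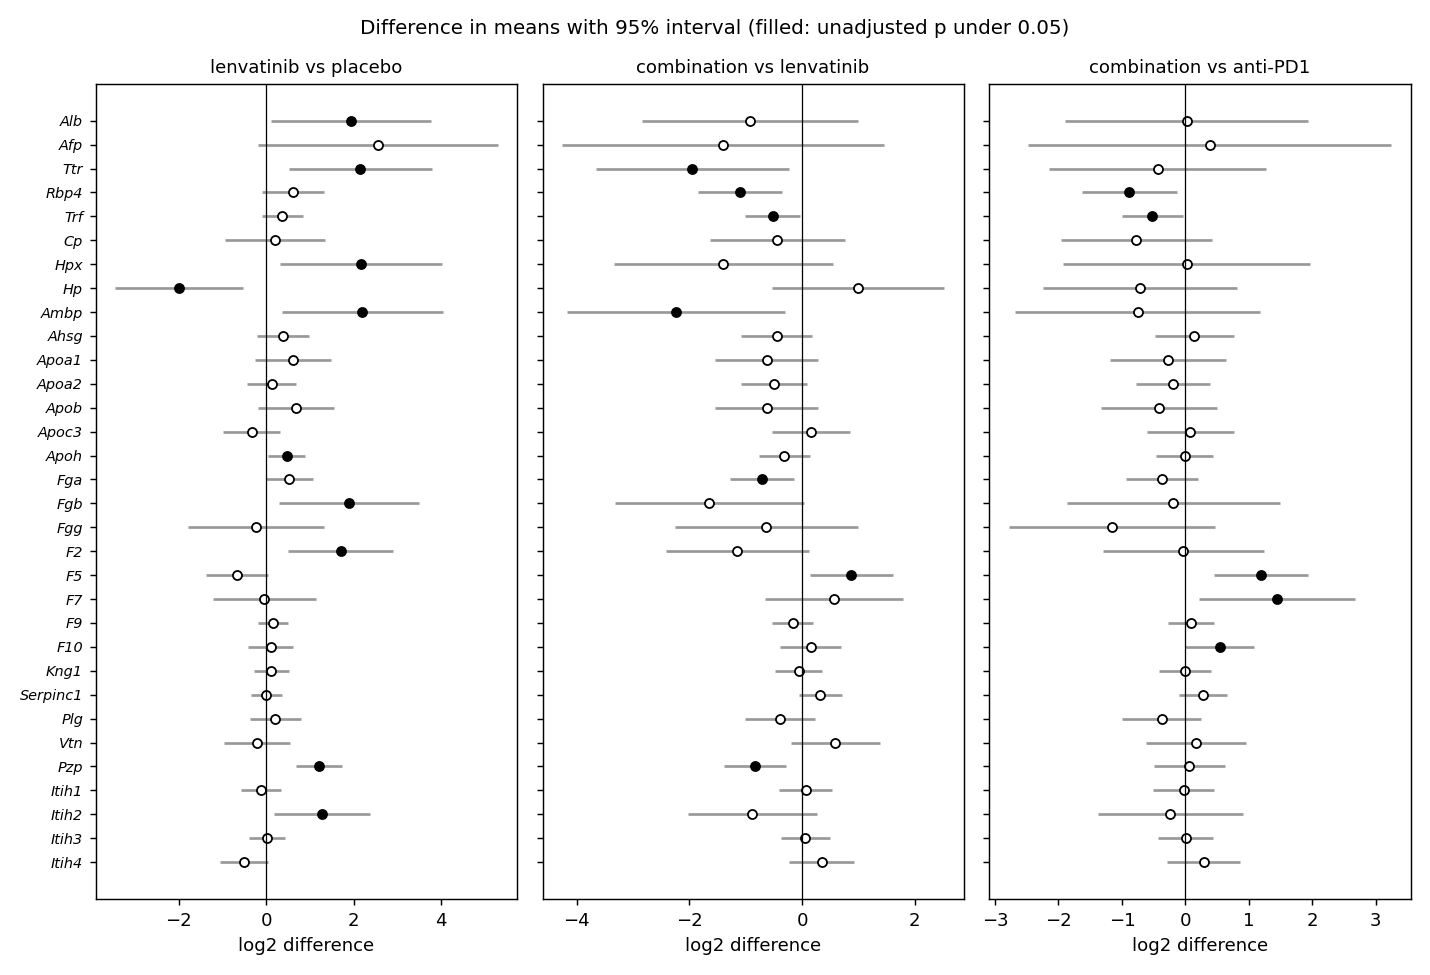
Points are log2 differences of arm means for each gene and lines are 95% intervals from limma, filled where the unadjusted p is under 0.05. Lenvatinib against placebo lies mostly to the right of 0, combination against lenvatinib mostly to the left, and no gene passes after adjustment.

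Anti-PD1 was then set against the combination and against lenvatinib, again with no probe set past the threshold (percent called 0 in each). Combination against anti-PD1 gave 3 higher and 2 lower genes at an unadjusted p under 0.05, against 4.85% and 2.79% of all probe sets, and 14 of 32 differences above 0 (48.1% of all probe sets), with a median of -0.02. F5 signals were 5.29, 4.46, 4.94, 6.06 and 4.75 under anti-PD1 and 5.56, 6.48, 6.77, 5.94 and 6.71 under the combination, which overlapped in anti-PD1 mouse 4. Its difference was 1.19 ± 0.35 (SE; limma adjusted p = 0.215, and 0.027 with array weights, a setting that called 504 probe sets). F7, the tissue-factor partner, differed by 1.45 ± 0.59 and F10 by 0.54 ± 0.26. F5 and F10 never passed the background limit, and F7 passed on 3 arrays. Macrophages also make some clotting factors, and all 13 macrophage markers had a positive difference here, with scores from -1.25 to 0.39 under anti-PD1 and from -0.56 to 1.27 under the combination. T cell markers were also above 0 in 10 of 10, with a median of 1.75, and B cell markers in 8 of 8. B cell scores ran from -0.91 to 0.05 under anti-PD1, and only combination mice 3 and 4, at 1.55 and 3.64, lay above that range. The part of macrophages, T cells and B cells in the F5, F7 and F10 values was not tested. Without the adipocyte-rich tumours, which leave 2 anti-PD1 tumours, the count was 1 higher and 10 lower and the median -0.31, with Alb at -1.05 and Ttr at -2.33. Rbp4 differed by -0.88 ± 0.36 and Trf by -0.52 ± 0.23, and Rbp4 was -0.51 without combination mouse 5. Lenvatinib against anti-PD1 gave Pzp at 0.90 ± 0.27 and Hp at -1.72 ± 0.73 (1 higher and 1 lower, against 1.55% and 3.04%), with 23 of 32 differences above 0 (51.5% of all probe sets), and without the adipocyte-rich tumours Hp was 0.06. Ahsg, the fetuin-A gene, had the next smallest p, at 0.59, or 0.34 without lenvatinib mouse 2.

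The interaction asked whether the 2 agents' differences from placebo added up on the log2 scale. No probe set passed (limma, percent called 0) and the smallest adjusted p among the listed genes was 0.198, for F5 at 1.86 ± 0.49 (SE). With array weights 9 listed genes passed, among 1691 probe sets called by that setting. Without combination mouse 1, F5 was the only listed gene to pass (limma adjusted p = 0.043), among 320 probe sets called. At an unadjusted p under 0.05 the count was 1 higher and 6 lower, against 5.70% and 3.31% of all probe sets, with 9 of 32 above 0 (48.9% of all probe sets) and a median of -0.73 against -0.01. The lower genes were Ttr (-2.59), Ambp (-2.95), Rbp4 (-1.49), Trf (-0.89), Fga (-0.90) and Pzp (-1.14). All 7 contrasts share arms, so these values are not independent of the pairs above. Over the 4 arms limma's moderated F-test called 0 probe sets (percent called 0), and 4 of the 32 genes, Rbp4, Hp, F5 and Pzp, had an unadjusted p under 0.05 against 5.69% of all probe sets. Among the arms lenvatinib had the highest mean for 20 of the 32 genes, and placebo the lowest for 13. This ordering was not counted over all probe sets.

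The other plasma protein genes gave 8 higher and 4 lower of 50 at an unadjusted p under 0.05 in lenvatinib against placebo (2.92% and 4.05% of all probe sets), and 0 passed after adjustment. Azgp1, a lipid-mobilising plasma protein, differed by 0.82 and Igfals, the binding partner of the IGF complex, by -0.96. Neither passed the background limit on any array. Of 12 receptor genes for carriers, 8 had a difference above 0 (49.1% of all probe sets) and 4 below. At an unadjusted p under 0.05 there were 2 higher and 1 lower (2.92% and 4.05% of all probe sets), and 0 passed after adjustment. The list held Stra6, the cell receptor for Rbp4, with 7.71 under placebo and 9.14 under lenvatinib, and Cubn, an endocytic receptor, with 4.20 and 5.19. Stra6 passed the background limit on 16 arrays and Cubn on none. Of the 21 liver transcription factors 13 had a difference above 0 (49.1% of all probe sets) and 0 passed, with Foxa3 at 1.12 and Cebpd, a C/EBP protein of the acute-phase response, at -0.65. Foxa3 passed the background limit on 8 arrays and Cebpd on 1. In combination against anti-PD1 the complement gene C6, which passed the background limit on 4 arrays, differed by 1.44 and Igfals by -1.17.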

How the data were processed

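Gene expression was measured in 21 tumours, 1 array per mouse, in 4 arms of 6, 5, 5 and 5. The deposited values are log2 signals that the authors made with RMA and oligo, per the submitters' processing notes, which name no version. RMA normalizes arrays to a common distribution, so levels are relative and a shift shared by most genes is removed. Of 29129 rows, 6923 control rows were left out of the tests and 22206 probe sets were tested, 19572 of them named by the platform's annotation and 2634 unnamed here. The fit was limma 3.58.1 (lmFit and eBayes on 4 arm means, R 4.3.3), with 7 contrasts, two-sided, Benjamini-Hochberg adjusted at 0.05, and no filter on dim probe sets. It was tested on simulated data. Correlations with Alb and their permutation p-values used NumPy 2.4.6, with ranks from SciPy 1.17.1. The number of arrays limits the precision. The members and lists were chosen with earlier results of these data known. Genes were named per contrast at an unadjusted p under 0.05, or as the 3 with the smallest p where fewer had one, and other lists by up to 2 genes with the smallest p. Same-numbered mice of different arms correlated above 0.1 in 15 of 30 pairs, with a median r of 0.10. Differently numbered mice did so in 48 of 135 pairs, with a median of -0.04. The labels do not say what a mouse number shares, so numbers were not treated as pairs in the main fit. Alternatives are given in the closing section.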

Additional observations from a re-analysis of the deposited data

Results flagged for a closer look

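In each arm every gene's most extreme tumour was set against its neighbours by Dixon's criterion, which chance meets in about 1 of 20 groups. It was met in 11 of 128 groups. Anti-PD1 mouse 2 was low for both albumin-family genes, with Alb at 8.41 (nearest tumour 11.45) and Afp at 3.75 (nearest 10.04). This tumour was adipocyte-rich and muscle-rich, and the part of that tissue was not tested. Anti-PD1 mouse 1, also adipocyte-rich and with bright hybridization controls, was low for Cp at 7.78 and high for Apoc3 at 7.21 and Itih3 at 4.56. Placebo mouse 6, of the same kind, was high for Apoc3, a regulator of triglyceride clearance, at 7.82. Combination mouse 1, with bright controls, was high for Apob, the structural protein of liver lipoproteins, at 7.57 and low for F10 at 5.75. Lenvatinib mouse 2 was high for Apoa2 at 7.09. The remaining 2 lay at or below the median of the negative controls: Kng1 in combination mouse 5 at 3.36 and Serpinc1 in placebo mouse 1 at 3.56.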

How the results depend on the processing

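Most alternatives left every comparison with 0 listed genes and 0 probe sets past the threshold, as with eBayes trend and robust settings, cyclic loess, fits restricted to the arms compared, the hybridization signal as a covariate, an adjusted p under 0.1, a filter on dim probe sets (11 listed genes passed it), and leaving out muscle-rich or adipocyte-rich tumours. Treating the mouse number as a replicate block changed no call, with 0 probe sets past the threshold in each contrast. The median difference was then 0.27 for lenvatinib against placebo. Same-numbered mice of different arms had r from -0.63 to 0.56, and differently numbered mice from -0.58 to 0.74. Array weights called 707 probe sets and 3 listed genes in combination against lenvatinib, 504 and 1 in combination against anti-PD1, 1691 and 9 in the interaction, and 142 and 1 over the 4 arms; the cause was not tested. Without the arrays with bright controls, combination against anti-PD1 gave 233 probe sets. Leaving out each mouse in turn gave 0 to 338 probe sets for combination against anti-PD1 (338 without combination mouse 1 and 87 without anti-PD1 mouse 4), 0 to 1 for combination against lenvatinib (1 without combination mouse 1), and 0 to 320 for the interaction (320 without combination mouse 1, 81 without lenvatinib mouse 5 and 7 without anti-PD1 mouse 4), with 0 to 1 listed genes there. The adipocyte-rich set, chosen after seeing the data, turned Hp to 0.14 in combination against placebo and 0.064 in lenvatinib against anti-PD1. Over the settings other than leaving out single mice, the median difference of the listed genes ranged from 0.15 to 0.42 for lenvatinib against placebo, -0.61 to -0.40 for combination against lenvatinib, 0.02 to 0.22 for anti-PD1 against placebo, -0.32 to -0.02 for combination against anti-PD1, 0.08 to 0.34 for lenvatinib against anti-PD1 and -0.75 to -0.53 for the interaction. It changed sign for combination against placebo, from -0.15 to 0.08. The count of genes above background on all arrays was 2 at the 99th percentile of the controls and 20 at their median. Each gene had 1 probe set, so the mean over probe sets gave no separate value.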
